A study of Danio rerio with 24 samples.

Results

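The kidney of the adult zebrafish holds 2 tissues side by side, the nephrons that make urine and the marrow that makes blood. Cells counted here as tubule cells were taken from single-cell libraries of whole kidney marrow (WKM) by their transcripts of 12 genes: *mb* (ENSDARG00000031952), *atp1a1a.4*, *atp1a1a.5*, *slc12a3*, *slc12a10.3*, *cldn3c*, *prom2*, *cdh17*, *pax8*, *slc26a1*, *pdzk1* and *enpep*. A barcode with at least 1500 transcripts was a cell, and a cell in which the 12 genes summed to at least 3 transcripts was a member. The rule took 210 of 1008 cells, 114 of 304 in fr105, 72 of 359 in IT325 and 24 of 345 in wild-type.

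Fish were 3 months old, of the strain Tüpfel long fin/Ekkwill, and the mutants were homozygous for an allele of *ikzf1*, which encodes the zinc finger transcription factor Ikaros of blood cells. The fr105 allele is a deletion whose product keeps only the first zinc finger, the IT325 allele is a nonsense mutation whose product lacks the C-terminal zinc fingers, and wild-type fish were the reference. WKM cells had been sorted as single cells by light scatter, with no antibody and no marker of tubule cells, and each genotype had 8 libraries of 96 barcodes in sets labelled P1 and P2. A library held 22 to 56 cells and 103585 to 545086 transcripts, where a transcript is a molecule estimated from unique molecular identifiers. The labels name no fish, so p-values measure the spread between libraries, which may be technical, and the methods place the libraries of a genotype in 1 sequencing lane, so lane and genotype cannot be told apart.

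A nephron filters blood in the glomerulus and then passes the filtrate along a tubule. Its proximal segments recover glucose, amino acids, organic acids, phosphate, sulphate and protein through carriers of the brush border and make glucose themselves. Its distal segments recover sodium chloride through cotransporters of the SLC12 family and let chloride leave through CLC-K channels. Both are driven by the sodium-potassium pump, and both carry the cadherin Cdh17 and transcription factors such as Pax8.

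The label of tubule cell held for some members and not for others. The sum of the 12 genes was 0 in 401 of the 1008 cells, 1 in 250 and 2 in 147, which lay just outside the rule, against 70 cells at 3, just inside it. At 10 or more stood 51 cells, 32 of fr105, 19 of IT325 and 0 of wild-type, and the highest cell reached 288 in fr105, 142 in IT325 and 6 in wild-type. The gene that decided most of the members near the limit was *atp1a1a.4*, an alpha subunit of the sodium-potassium pump. Of the 210 members, 69 carried it and none of the other 11 genes (30 in fr105, 20 in IT325, 19 in wild-type), and a further 54 needed it to reach 3 transcripts (33, 17 and 4). It was also detected in 341 of the 798 cells outside the rule (47.9% in fr105, 40.1% in IT325 and 42.1% in wild-type). The rule itself keeps each of its genes under 3 transcripts in such cells. Among cells outside the rule with at least 200 neutrophil transcripts per 10000, which should not be tubule cells, 50.8% carried it (321 cells, median depth 5300 transcripts). The same cells carried *cdh17* in 4.05%, *slc12a10.3* in 1.56%, *mb* in 1.25% and *pax8* in 0% (0 of 321). In the 210 members, at a median depth of 6281 transcripts, *cdh17* was detected in 41.9%, *slc12a10.3* in 21.4%, *mb* in 20% and *pax8* in 6.19%. These genes also chose the members, so their higher share in members follows in part from the rule.

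Cells that reached 3 transcripts on the 11 genes other than *atp1a1a.4* numbered 87, of which 51 were from fr105, 35 from IT325 and 1 from wild-type. This division was made after the values had been seen and is given as a description, with no test. Of the 87, 27 held only 3 or 4 transcripts of the 11 genes and 46 held 10 or more. Of 11 epithelial genes of the tubule, *cdh17* and *pax8* were also rule genes, so they were left out here. The other 9 had a median level of 35.9 transcripts per 10000 in the 87 cells, against 7.61 in the 123 members that needed *atp1a1a.4* and 4.61 in the cells outside the rule. These 9 include *atp1b1*, the beta subunit of the pump. In the cell with the highest rule sum it had 110 transcripts, against 8 or fewer for each other gene of the 9. A level without *atp1b1* was not computed. The 15 neutrophil genes had a median of 42.1 per 10000 in the 87 cells, against 195 in the 123 and 99.7 outside the rule. The 123 thus had the higher neutrophil level and the 87 the lower one. Blood transcripts were still present in many of the 87, of which 26 (29.9%) held at least 100 neutrophil or at least 100 erythroid transcripts per 10000, 12 of 51 in fr105, 13 of 35 in IT325 and the 1 wild-type cell. In the 123 this was so for 86 (69.9%). The 12 erythroid genes had medians of 26.3 per 10000 in the 87 cells, 20.8 in the 123 and 34.0 outside the rule, and with all transcripts of a class pooled their level was 369 per 10000 in the 87 and 204 in the 123. Medians of the 13 mitochondrially encoded respiratory chain genes were 582, 335 and 334 in the same order. Of the 87 cells, 0 carried muscle or interrenal transcripts, 4 carried any of 4 podocyte genes and 9 any of 8 genes of multiciliated cells, and each of these lists had a median of 0. Below, the 210 cells are called members of the rule, and tubule cells is used as a short name for the 87, blood transcripts included.

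**Figure D1:**
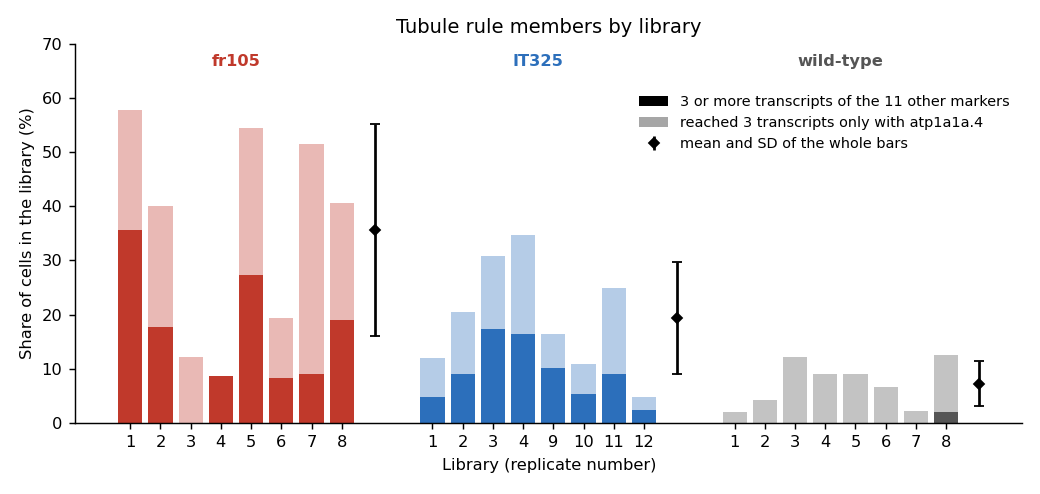
Share of cells (%) that met the rule in each library, by replicate number. Solid bars are cells with 3 or more transcripts of the 11 genes other than *atp1a1a.4*, pale bars are cells that reached 3 only with it, and the diamond with its bar is the mean and SD of the whole bars over 8 libraries. Solid bars stand in 7 of 8 fr105 libraries, 8 of 8 IT325 libraries and 1 of 8 wild-type libraries.

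The members' share of cells was higher in both mutants than in wild-type. In fr105 it ran from 8.70% to 57.8% with a median of 40.3%, in IT325 from 4.76% to 34.7% with a median of 18.4%, and in wild-type from 2.08% to 12.5% with a median of 7.73%. The lowest libraries of each mutant lay inside the wild-type range, so the groups overlapped. The mean share was 35.6% ± 19.6 in fr105 and 7.22% ± 4.12 in wild-type (SD, n = 8 each), a difference of 28.4 percentage points with a two-sided exact permutation p of 0.00171 (adjusted over the 9 share tests 0.0154). In IT325 it was 19.3% ± 10.35, which was 12.1 points above wild-type (exact permutation p 0.00761, adjusted 0.0171). The difference of 16.2 points between fr105 and IT325 did not pass (exact permutation p 0.0589, adjusted 0.0883), and it passed without fr105 replicate 3 (19.6 points, adjusted 0.0382) or replicate 4 (20.1 points, adjusted 0.0319). Both of these fr105 libraries stood low, with 5 of 41 and 2 of 23 cells.

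A share of cells rises with more tubule cells as with fewer blood cells, and these cannot be told apart here. It also rises with depth, since 3 transcripts are reached more easily in a deep cell. The median depth of a library's cells averaged 5179 ± 905 transcripts in fr105, 6344 ± 1095 in IT325 and 3725 ± 469 in wild-type (SD, n = 8 each). After each cell was thinned to 1500 transcripts, which left out 3 fr105 cells, 6 IT325 cells and 0 wild-type cells, the rule took 47 cells in fr105, 32 in IT325 and 4 in wild-type. The thinned differences from wild-type were 13.6 points in fr105 and 7.58 points in IT325 (exact permutation adjusted p 0.0042 for each). In libraries of set P1 alone the differences were 22.8 and 7.34 points, and in P2 alone 34.0 and 16.9 points (n = 4 each). Of 9 tests adjusted together, 0 passed within a set, where 4 against 4 libraries allow no exact permutation p below 0.0286.

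The tubule cells as narrowed to 87 gave the same order of genotypes. Their share had a lowest value, median and highest value of 0%, 13.4% and 35.6% in fr105, 2.38%, 9.09% and 17.3% in IT325, and 0%, 0% and 2.08% in wild-type. The means were 15.7% ± 11.6 in fr105, 9.32% ± 5.32 in IT325 and 0.26% ± 0.737 in wild-type (SD, n = 8 each). With all cells of a genotype pooled, the shares were 16.8% in fr105 (exact Clopper-Pearson 95% interval 12.8 to 21.5), 9.75% in IT325 (6.89 to 13.3) and 0.29% in wild-type (0.00734 to 1.60). These intervals cover counting error only and not the spread between libraries.

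Transcripts of *mb*, which encodes the oxygen-binding protein myoglobin, lay in members of both mutants and in 0 of the 24 wild-type members. The 8 fr105 libraries held 136, 35, 0, 4, 56, 0, 18 and 1 of them in members (replicates 1 to 8), the IT325 libraries held 1 in replicate 3, 11 in replicate 4 and 25 in replicate 11, and the wild-type libraries held 0. In fr105, replicates 1, 2 and 5 thus carried most of the transcripts, and outside the rule *mb* was seen in 9 of 798 cells, 2 of them wild-type with 3 transcripts. Myoglobin is best known from muscle, and the 42 members with *mb* held 0 transcripts of 5 muscle genes. They held *atp1a1a.4* in 39 of 42 cells, *cdh17* in 30, *clcnk* in 19, *epcam* in 16 and *pax8* in 11, where *epcam* encodes an adhesion molecule of epithelia. Of these, *atp1a1a.4*, *cdh17* and *pax8* also chose the members, so their counts follow in part from the rule. Over all members they were detected in 89.5%, 41.9% and 6.19% of cells.

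Transcripts of *cdh17*, the kidney cadherin, were found in more members (88) than those of any other of the 11 genes. Members of fr105 held 156, 42, 0, 7, 100, 29, 5 and 62 of them in replicates 1 to 8, those of IT325 held 1, 21, 53, 22, 19, 8, 20 and 3 in replicates 1, 2, 3, 4, 9, 10, 11 and 12, and wild-type replicate 8 held 3. Members with *cdh17* thus lay in 7 of 8 fr105 libraries, in every IT325 library and in 1 of 8 wild-type libraries, where all 3 transcripts came from 1 cell. Outside the rule, which keeps it under 3 transcripts, it was seen in 15 of 190 cells in fr105, 12 of 287 in IT325 and 5 of 321 in wild-type. For *pax8*, a transcription factor needed to form the nephron, 31 transcripts lay in 12 cells of fr105, 1 in 1 cell of IT325 and 0 in wild-type, and 0 of 798 cells outside the rule carried it. For *cldn3c*, a claudin of tight junctions, the counts were 85, 32 and 1 transcripts in fr105, IT325 and wild-type members, and for *prom2*, a prominin of membrane protrusions, 71, 38 and 1.

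A member was called distal where 12 distal genes summed to at least 2 transcripts and to at least 3 times the sum of 26 proximal genes, proximal where the reverse held, and mixed where both sums reached 2 and neither held. By this rule 41 members were distal, 50 proximal, 16 mixed and 103 unassigned. Of the unassigned members, 57 carried *atp1a1a.4* alone of the 12 rule genes. The lists include 5 of the genes that chose the members (*slc12a3* and *slc12a10.3* distal, *slc26a1*, *pdzk1* and *enpep* proximal), so a cell with them was more likely to be both a member and assigned. The 87 tubule cells divided into 28 distal, 37 proximal, 12 mixed and 10 unassigned cells. Of the 123 members that needed *atp1a1a.4*, 13 were distal and 13 proximal. Of the 798 cells outside the rule, 36 met the distal and 52 the proximal call. By genotype these were 9 and 11 of 190 cells in fr105, 13 and 18 of 287 in IT325 and 14 and 23 of 321 in wild-type. Below, distal and proximal cells are members alone, and their shares include members that needed *atp1a1a.4*.

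**Figure D2:**
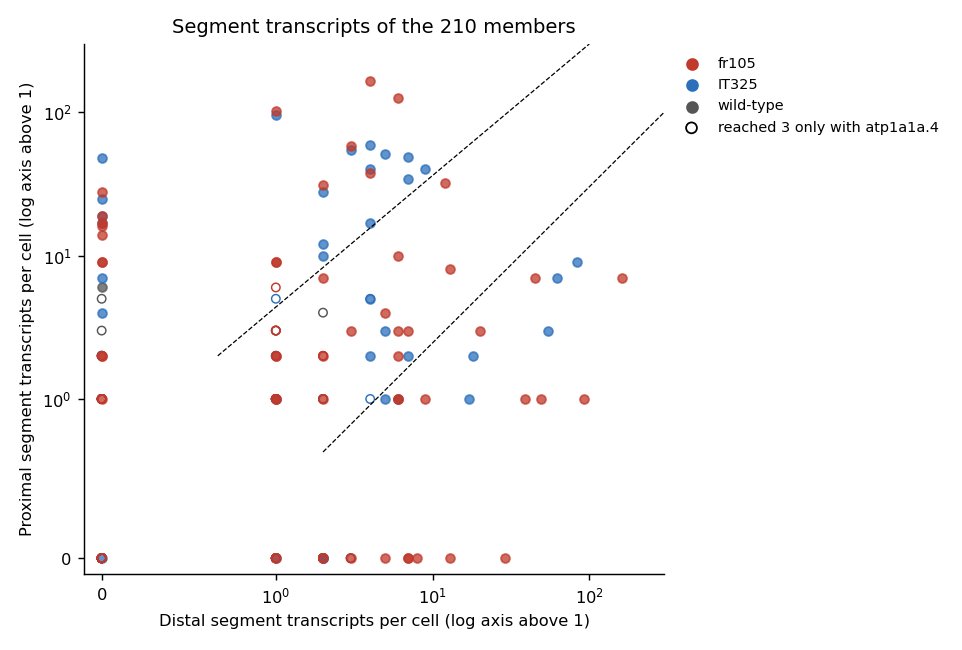
Summed transcripts of the 12 distal genes (x axis) and of the 26 proximal genes (y axis) in each of the 210 members, both axes logarithmic above 1. Points are cells coloured by genotype, open where the cell reached 3 transcripts only with *atp1a1a.4*, and the dashed lines mark the ratio of 3 that separates the segments. The member with the highest sum of rule genes held 162 distal and 7 proximal transcripts. Mixed cells, such as that with 12 distal and 32 proximal transcripts in fr105 replicate 1, lie between the dashed lines. Cells with low sums overlap at the lower left, and 0 wild-type members were called distal.

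Distal members were found in both mutants and in 0 of the wild-type libraries, where 14 cells outside the rule met the distal call. They made up 7.26% ± 5.78 of cells in fr105 (range 0% to 15.9%, median 8.60%) and 4.36% ± 6.27 in IT325 (range 0% to 16.3%, median 1.14%), and 0 of 345 cells in wild-type (SD, n = 8 libraries each). By counting error alone, 0 of 345 pooled cells allows a share of up to 0.870% (3 counts in 345). That limit leaves out the spread between libraries. Of the libraries, 6 of fr105 and 4 of IT325 held distal cells. The difference of 7.26 points between fr105 and wild-type passed (exact permutation p 0.00699, adjusted 0.0171) and that of 4.36 points between IT325 and wild-type did not (exact permutation p 0.0769, adjusted 0.0989). Without any 1 of IT325 replicates 2, 9, 10 or 12, each with 0 distal cells, the IT325 difference was 4.99 points and passed (adjusted p 0.0385). Between fr105 and IT325 the difference was 2.90 points (exact permutation p 0.341, adjusted 0.384). The distal call drew on *slc12a3* and *slc12a10.3*, which also chose the members. With rule genes left out of the segment lists, distal members numbered 15 in fr105, 8 in IT325 and 0 in wild-type, against 24, 17 and 0 with them. Proximal members then numbered 26, 23 and 5, against 23, 21 and 6. Shares of cells were not tested in that setting.

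Proximal members were found in all genotypes. Their share ran from 0% to 13.5% in fr105 (median 8.51%), from 2.04% to 11.4% in IT325 (median 5.76%) and from 0% to 4.35% in wild-type (median 1.04%). The mean was 7.66% ± 5.37 in fr105, 5.77% ± 3.47 in IT325 and 1.61% ± 1.91 in wild-type (SD, n = 8 each). The fr105 share was 6.05 points above wild-type (exact permutation p 0.0141, adjusted 0.0255), the IT325 share 4.15 points (exact permutation p 0.00761, adjusted 0.0171), and the 1.897 points between the mutants did not pass (adjusted 0.408). Of the 6 wild-type proximal cells, 5 were members only with *atp1a1a.4*. Both calls against wild-type were lost for cells with at least 3000 transcripts (3.01 and 3.38 points, adjusted p 0.17 and 0.165) and for shares of all 96 barcodes (2.21 and 1.95 points, adjusted p 0.0808 and 0.0521).

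The balance of segments differed from library to library. Distal cells as a share of distal and proximal cells were 45.5%, 100%, 0%, 58.3%, 25%, 60% and 37.5% in fr105 replicates 1, 2, 4, 5, 6, 7 and 8, where replicate 3 held neither kind. They were 66.7%, 0%, 54.5%, 88.9%, 0%, 0%, 25% and 0% in IT325 replicates 1, 2, 3, 4, 9, 10, 11 and 12. The means of 46.6% ± 31.3 (n = 7) and 29.4% ± 35.9 (n = 8) differed by 17.2 points, within the spread of libraries (exact permutation p 0.345). In IT325 the distal cells were concentrated in replicates 3 and 4, which held 14 of 17.

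The sodium chloride cotransporter genes *slc12a3* and *slc12a10.3* of the distal list were seldom seen in the same member. Transcripts of *slc12a3*, the thiazide-sensitive cotransporter, lay among members in fr105 replicates 1, 2 and 5, with 29, 15 and 44 of them, and in IT325 replicate 9 with 1. Outside the rule, 3 of 190 fr105 cells, 0 of 287 IT325 cells and 1 of 321 wild-type cells held 1 each. Transcripts of *slc12a10.3*, which encodes a cotransporter of the same family, lay in fr105 replicates 1, 2, 5, 6 and 8 with 77, 33, 150, 5 and 30, and in IT325 replicates 1, 3, 4 and 9 with 4, 124, 72 and 5. Of the members, 15 had *slc12a3*, 45 had *slc12a10.3* and 1 had both. With at least 2 transcripts of one and 0 of the other, 9 members held *slc12a3* and 24 held *slc12a10.3*. They were taken from all members and were not required to be distal. These groups were formed after the values had been seen, and what follows about them is description with no test.

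The 9 *slc12a3* cells came from 3 fr105 libraries and the 24 *slc12a10.3* cells from 5 fr105 and 4 IT325 libraries. They differed in transcripts of the alpha subunits of the sodium-potassium pump. The genes *atp1a1a.4*, *atp1a1a.5*, *mb*, *prom2* and *cdh17* were rule genes, so they also chose the members. A cell with only 2 transcripts of its cotransporter needed another rule gene to be a member. Levels of *atp1a1a.4* were 35.9 per 10000 transcripts in the *slc12a3* cells (9 of 9 cells) and 1.82 in the *slc12a10.3* cells (11 of 24 cells). Those of *atp1a1a.5* were 0 in the *slc12a3* cells (0 of 9) and 10.9 per 10000 in the *slc12a10.3* cells (14 of 24). Of the 20 members with *atp1a1a.5*, 17 also held *slc12a10.3*.

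With the cotransporter and the pump went other genes. Levels of *mb* were 29.9 per 10000 in the *slc12a3* cells (8 of 9 cells, 120 transcripts) and 0.178 in the *slc12a10.3* cells (4 of 24, 4 transcripts). The *slc12a3* cells also carried *clcnk*, the chloride channel of the basolateral membrane, in 6 of 9 cells against 5 of 24, and *bsnd*, its barttin subunit, in 4 of 9 against 3 of 24. The *slc12a10.3* cells carried *emx1*, a homeobox factor of the distal nephron in zebrafish, in 14 of 24 cells against 2 of 9, and *prom2* in 11 of 24 against 1 of 9. In them *gata3*, a zinc finger transcription factor, was seen in 8 of 24 cells, against 0 of 9. The adhesion gene *cdh17* was present in both, in 9 of 9 *slc12a3* cells and 15 of 24 *slc12a10.3* cells.

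Among genes outside the lists, the potassium channel genes *kcnj2* (6 of 9 cells) and *kcnma1* (4 of 9) were seen in *slc12a3* cells and in 0 of 24 *slc12a10.3* cells. Ranked the other way, the genes of the *slc12a10.3* cells were led by genes of wide use, with *tuba5*, an alpha tubulin, in 13 of 24 cells and *ywhae*, a 14-3-3 protein, in 19 of 24, each in 0 of the 9 *slc12a3* cells, so a gene missing from 9 shallow cells need not be absent from that kind of cell. The pump regulator *fxyd2* was seen in 8 of 9 *slc12a3* cells with 74 transcripts, against 3 of 24 with 10. Median neutrophil levels were 42.1 per 10000 in the *slc12a3* cells and 39.7 in the *slc12a10.3* cells, and median erythroid levels 26.3 and 26.4. All *slc12a3* cells came from fr105, so genotype also differs in the pooled contrast, the only one given for genes outside the lists. Within fr105, in 9 *slc12a3* and 10 *slc12a10.3* cells, levels of *mb* were 29.9 and 0.377 per 10000. Those of *atp1a1a.4* were 35.9 and 3.39, and those of *atp1a1a.5* were 0 and 23.7. Median depth was 3717 transcripts in the *slc12a3* cells and 5583 in all *slc12a10.3* cells (4750 in those of fr105).

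**Figure D3:**
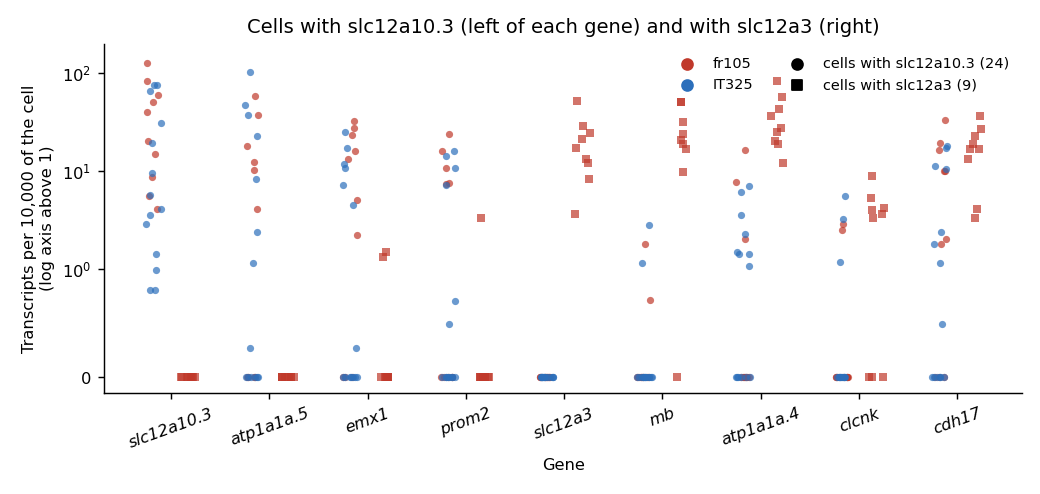
Transcripts per 10000 of the cell (logarithmic above 1) for 9 genes in the 24 cells with *slc12a10.3* (circles, left of each gene) and the 9 cells with *slc12a3* (squares, right), each point a cell coloured by genotype. *mb*, *atp1a1a.4* and *clcnk* stand high in the squares, and *atp1a1a.5*, *emx1* and *prom2* in the circles.

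The cell with the highest sum was distal, from fr105 replicate 5, with 117 transcripts of *slc12a10.3*, 83 of *atp1a1a.5*, 47 of *cdh17* and 33 of *emx1*. Its counterpart with *slc12a3* came from the same library, with 56 transcripts of *atp1a1a.4*, 35 of *slc12a3* and 34 of *mb*. In IT325 the highest cell came from replicate 3, with 65 transcripts of *slc12a10.3* and 40 of *atp1a1a.5*. Cells of both cotransporter patterns lay in 3 libraries of fr105, replicates 1, 2 and 5, and in 0 of IT325, and the *slc12a10.3* pattern was seen in both mutants.

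Of the 16 mixed cells, 11 lay in fr105. These held 91 transcripts of *mb* in 7 of 11 cells, 53 of them in 1 cell of replicate 1, 132 of *cdh17* in 9, 119 of *atp1a1a.4* in 10, 24 of *epcam* in 7 and 17 of *pax8* in 5. The same genes were frequent in the 9 *slc12a3* cells, with *mb* in 8, *cdh17* and *atp1a1a.4* in 9 each, *epcam* in 7 and *pax8* in 3. Of the mixed fr105 cells, 3 held *slc12a3* (5 transcripts), so the groups may share cells. A further alpha subunit of the pump, *atp1a1a.3*, had 126 transcripts in 2 of the mixed fr105 cells. In the same mixed cells the sodium-proton exchanger gene *slc9a3.1*, counted as proximal, had 14 transcripts in 5 cells. Its paralog *slc9a3.2*, also counted as proximal, had 40 in 3, of which 31 were in 1 cell. Over all members, *atp1a1a.3* had 144 transcripts in 10 cells of fr105, 3 transcripts in 3 cells of IT325 and 0 in wild-type. The 4 mixed cells of IT325 were deeper, with a median of 25783 transcripts against 3707 in those of fr105, and held 0 transcripts of *mb*.

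Proximal cells held transcripts of carriers on the proximal list. The sulphate exchanger *slc26a1* was seen in 30 of 50 proximal and 3 of 41 distal cells. The scaffold gene *pdzk1* was seen in 26 and 1. Both chose the members, so these counts partly reflect the rule. Genes that the membership rule did not use but the segment rule did were also frequent. Their contrast between proximal and distal cells follows in part from the segment rule and is no independent support for the segments. The sodium-lactate carrier *slc5a12* was seen in 19 proximal and 0 distal cells, the sodium-glucose carrier *slc5a1* in 18 and 0, the dicarboxylate carrier *slc13a3* in 21 and 0, the organic anion carrier *slc22a7b.1* in 21 and 0, and the endocytic adaptor *dab2* in 20 and 0. The gene *fbp1b*, a fructose bisphosphatase of glucose synthesis, was seen in 25 proximal and 0 distal cells.

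Counts of some carriers were uneven between the mutants and rested on few cells. Members of fr105 held 107 transcripts of *slc5a12* in 14 cells of 5 libraries, at most 40 in a library, against 38 in 6 cells of IT325, of which 35 lay in replicate 3 and 3 in all other libraries. For *slc13a1*, a sodium-sulphate carrier, fr105 held 7 in 5 cells of 3 libraries, and IT325 63 in 10 cells of 7 libraries, at most 20 in a library. The genes *slc3a1* and *slc7a9* together take up cystine. Of *slc3a1*, fr105 held 9 transcripts in 4 cells of 3 libraries and IT325 30 in 13 cells of 7 libraries. Of *slc7a9*, fr105 held 26 in 9 cells, 12 of them in replicate 8 and 11 of these in 1 cell, and IT325 held 1. For *slc9a3.2* the counts were 48 in fr105, 0 in IT325 and 2 in wild-type, and 31 of the 48 lay in 1 mixed cell of fr105 replicate 1, without which library 17 were left. Each of these genes was below the expression minimum of the gene test, so no difference between the mutants was tested. The proximal cell with the highest sum, from fr105 replicate 6, alone held 13 transcripts of *slc5a12*, 14 of *slc5a1*, 30 of *fbp1b* and 32 of *slc13a3*.

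**Figure D4:**
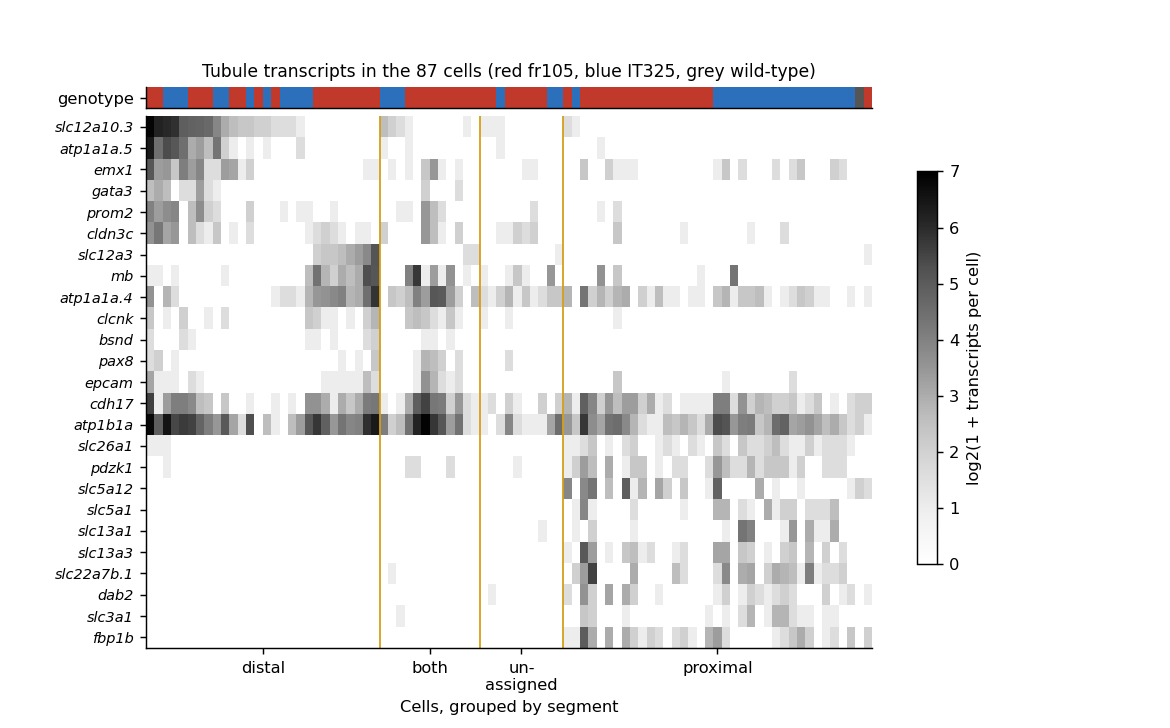
Transcripts per cell on a log2 scale with 1 added (grey scale 0 to 7) for 25 tubule genes (rows) in the 87 cells with 3 or more transcripts of the 11 genes other than *atp1a1a.4* (columns), grouped as 28 distal, 12 mixed (labelled both), 10 unassigned and 37 proximal cells, with the genotype in the colour strip. The distal block divides into cells with *slc12a10.3*, *atp1a1a.5* and *emx1* and cells with *slc12a3*, *mb* and *atp1a1a.4*. The lower rows are filled in the proximal block, which follows in part from the segment rule.

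Genes outside the segment lists were ranked by the ratio between the segments, so those named differ by the way they were picked, and no test was made. Among those seen in at least 25% of proximal cells, the 10 with the highest ratio to distal cells had 0 transcripts in the 41 distal cells. They included *cltrn*, collectrin, a partner of amino acid carriers (30 of 50 proximal cells, 223 transcripts), *pdzk1ip1*, a partner of Pdzk1 (29 cells), the sugar carriers *slc2a11a* (24 cells) and *slc2a2* (19), *slc16a9* (20), *slc22a4* (16), *agxt* (19), an aminotransferase of glyoxylate, and *g6pc1* (19), the last enzyme of glucose release. On the distal side the ratio was highest for the rule gene *atp1a1a.5* (14 of 41 distal and 1 of 50 proximal cells), and the genes after it were less distinct, each seen in some proximal cells. They were led by ENSDARG00000058688 (14 and 6 cells), *ifngr2* (13 and 4), *pfkfb4* (13 and 3), an enzyme that sets the rate of glycolysis, and *cdkn1b* (11 and 4), an inhibitor of the cell cycle. Distal cells had median levels of 50.4 per 10000 for 31 nuclear genes of the respiratory chain and 554 for the 13 mitochondrial ones, against 34.9 and 410 in proximal cells. Median depth was 5596 transcripts in distal and 4662 in proximal cells.

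All members set against all other cells gave a list led by *fxyd2*, as a description since the cells were chosen by related genes. Transcripts of *fxyd2*, a small regulator of the sodium-potassium pump, averaged 198 counts per 1000000 transcripts (CPM) summed over a library's members and 4.28 CPM over its other cells, in 68 of 210 and 13 of 798 cells. Levels of *selenop*, the plasma selenium carrier, were 2047 and 108 CPM (135 and 247 cells), and those of the organic anion carrier *slc22a8* 298 and 34.0. Next came *ndrg1* (230 and 29.4 CPM, 90 and 113 cells) and *lgmn* (232 and 33.1 CPM, 56 and 111 cells). The beta subunit of the pump, *atp1b1*, was at 991 and 201 CPM and was also seen in 404 of the 798 other cells. Members with *atp1b1* numbered 168, with 1197 transcripts in fr105, 753 in IT325 and 45 in wild-type. The keratin gene *krt8*, listed as epithelial, had 990 transcripts in members and 2725 in other cells, so it did not mark the members.

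Set against the 123 members that needed *atp1a1a.4*, the 87 tubule cells held further genes of kidney transport and metabolism. The organic cation carrier *slc22a2* had 606 transcripts in 35 of the 87 cells, against 8 in 7 of the 123. For *hsd11b2*, which inactivates cortisol, the cells were 36 of 87 and 2 of 123, for *gpt*, alanine aminotransferase, 32 and 3, for *igfbp5* 32 and 9, for the cytochrome *cyp2k22* 22 and 0, and for the drug exporter *slc47a4* 23 and 2. These cells came from both mutants, with *slc22a2* in 17 cells each of fr105 and IT325 and 1 of wild-type.

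The mutated gene itself was seldom seen in the tubule cells. Transcripts of *ikzf1* were detected in 8 of 51 fr105 cells (15.7%, exact Clopper-Pearson 95% interval 7.02 to 28.6), in 6 of 35 IT325 cells (17.1%, 6.56 to 33.7) and in 0 of 1 wild-type cell. Both intervals pool cells across libraries and cover counting error only, not the spread between libraries. In the members that needed *atp1a1a.4* the shares were 66.7%, 89.2% and 34.8% in fr105, IT325 and wild-type, and in cells outside the rule 46.3%, 50.9% and 22.1%. Median depths were 3769, 5596 and 2401 transcripts in the tubule cells, 7432, 11035 and 6115 in the members that needed *atp1a1a.4*, and 5006, 5980 and 3635 outside the rule.

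To compare transcripts between the mutants, those of all members of a library were summed and tested with limma-voom on 8 fr105 and 8 IT325 libraries. Of 811 genes, 56 were higher in fr105 (6.91%) and 37 lower (4.56%) at a Benjamini-Hochberg adjusted p under 0.05. Of these 93, 7 were free of overlap between groups. Overlap is given only for called genes, from the same values that called them, so it is no added support. Summed members held 3940 to 230965 transcripts in fr105 and 27511 to 233486 in IT325, and fr105 replicate 4 had 2 members alone. Few tubule genes were abundant enough to be tested. Of 12 distal genes 0 were, and of the 12 rule genes *atp1a1a.4* and *cdh17* were. Since rule genes chose the cells, their log2 differences of 1.33 for *atp1a1a.4*, counted among the 56, and 0.72 for *cdh17* are a description with no test. The share of higher genes among those called was 60.2% with trimmed means, 74.6% with library size scaling and 77.3% with median-of-ratios scaling, and the last moved the median gene to a log2 difference of 0.13, against -0.06 with trimmed means.

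The fr105 members were higher in genes of several kinds. An unnamed gene, si:ch211-229i14.2, had 116, 253 and 382 CPM as the lowest, median and highest value of fr105, against 0, 5.13 and 25.7 in IT325, with no overlap, and a log2 difference of 4.24 ± 0.39 (SE, limma-voom adjusted p 5.44e-07). Likewise CR388047.3 had 126, 250 and 461 CPM in fr105 and 0, 18.7 and 77.0 in IT325 (3.19 ± 0.44, adjusted 0.000115). The rule gene *atp1a1a.4* had 323, 660 and 1777 CPM in fr105 and 152, 239 and 398 in IT325, which overlapped. Also higher were *ZFP36* (2.35 ± 0.42), which destabilises mRNAs, *cited4a* (2.21 ± 0.42), a cofactor of transcription, *txnip* (1.83 ± 0.39) and *txn* (1.24 ± 0.28), thioredoxin and its binding partner, *thumpd3* (1.79 ± 0.30), *myo7b* (1.77 ± 0.37), CABZ01033205.2 (1.48 ± 0.32), *slc25a35* (1.46 ± 0.32) and *il10rb* (1.198 ± 0.27), a cytokine receptor chain.

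The genes named as lower in fr105 members included a pair of globins and *hspa8*. The globin genes *hbe1* (ENSDARG00000069734) and *hbaa2* had log2 differences of -4.58 ± 0.99 and -4.44 ± 1.04 (SE, limma-voom adjusted p 0.00686 and 0.0117). For *hbe1* the lowest, median and highest values were 11.4, 85.5 and 4122 CPM in fr105 and 1454, 2659 and 19517 in IT325, which overlapped. Within libraries of set P1 its log2 difference was -0.69 and within P2 -7.41, and that of *hbaa2* was -0.33 and -7.85 (n = 4 each). The gene si:ch211-114n24.6 had 0, 5.80 and 68.6 CPM in fr105 and 356, 520 and 863 in IT325, with no overlap (-5.08 ± 0.52, adjusted 1.45e-06). Transcripts of *hspa8*, the constitutive heat shock protein 70, were at 254, 1185 and 1459 CPM in fr105 and 1832, 2163 and 2949 in IT325 (-1.04 ± 0.19, adjusted 0.002), again with no overlap. Also named was *grna.1* (-4.95 ± 1.05), a granulin gene counted here with macrophage genes. Others were *anxa2* (-3.02 ± 0.47), an annexin, *mcm7* (-2.28 ± 0.55) of DNA replication and *dbi* (-2.10 ± 0.32). The last were *cdk2ap2* (-1.57 ± 0.32), *tuba5* (-1.47 ± 0.31), *ran* (-1.16 ± 0.27) and *syncrip* (-1.14 ± 0.23).

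Most of these differences had the same direction in the cells outside the rule. Of the 93 genes, 90 were tested in the other cells of the same libraries and 87 had the same sign there, with si:ch211-229i14.2 at 4.23 ± 0.34, *hbe1* at -6.29 ± 0.55 and *hspa8* at -0.42 ± 0.10 (SE). The share of same signs over all genes tested is not given, so 87 of 90 has no background to be read against. When the difference in members was set against that in other cells by an interaction term, 0 of the 93 passed, which does not show that the sizes were equal. Over all 1878 genes 4 passed as higher (0.213%) and 1 as lower (0.0532%), with 111 and 94 at an unadjusted p under 0.05 in limma-voom. With members required to hold 2 different rule genes, 3 genes were called in place of 93, *ZFP36* (1.71 ± 0.36 SE) and *grna.1* (-4.86 ± 1.06), each with an adjusted p of 0.0369 in limma-voom, and the rule gene *atp1a1a.4*, which is no independent call since that requirement acts on its own transcripts. Lists of blood cell genes could be tested only in part in the members. Of 15 neutrophil genes 12 were tested, 1 higher (*ncf1*, 1.17 ± 0.36) and 0 lower. Of 12 erythroid genes 2 were tested and 1 was lower. Of 15 macrophage genes 3 were tested and 1 was lower, *grna.1*. The other tested macrophage genes had differences in the opposite direction that did not pass. They were *cd74a* (2.85 ± 1.11 SE, limma-voom adjusted p 0.0866) and *cd74b* (1.55 ± 0.77, adjusted p 0.166). Over all 811 genes 6.91% were higher and 4.56% lower. The globin gene *hbe1*, called lower, was not on the erythroid list. Summed erythroid levels of members ran from 1.71 to 396 per 10000 in fr105 libraries and from 24.4 to 1118 in IT325 libraries, and their part in the other differences was not tested. Of 24 respiratory chain genes tested, 13 nuclear and 11 mitochondrial, 0 passed.

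**Figure D5:**
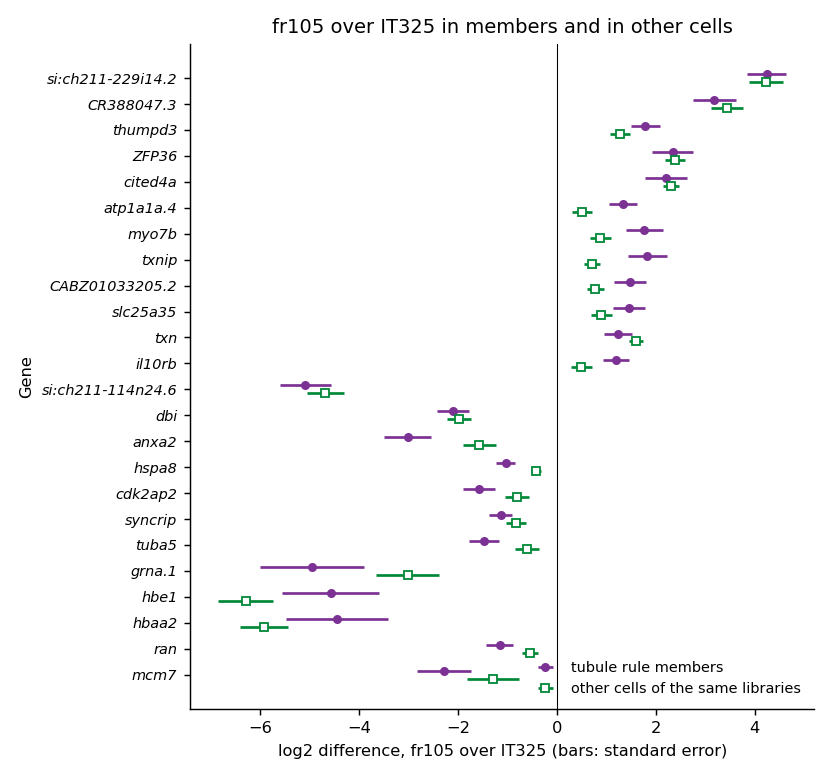
Log2 difference between fr105 and IT325 (x axis, bars are the standard error) for the 12 genes with the smallest adjusted p in each direction, in members of the rule (filled) and in the other cells of the same libraries (open). All 24 pairs lie on the same side of 0, with *hbe1* at -4.58 in members and -6.29 in other cells. The share of such pairs over all genes tested is not given.

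Distal cells alone, in 6 fr105 and 4 IT325 libraries, gave 220 tested genes, of which 0 were higher in fr105 (0%) and 1 was lower (0.455%). This was *hbe1*, at -6.14 ± 1.02 (SE, limma-voom adjusted p 0.00847), and at an unadjusted p under 0.05 there were 14 higher and 9 lower genes. Its transcripts numbered 13 in the distal cells of fr105 and 2320 in those of IT325. Without IT325 replicate 4, which held 8 of the 17 distal cells of its genotype, 19 genes passed.

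Members of the mutants could also be set against those of wild-type, though 23 of the 24 wild-type members needed *atp1a1a.4*. With 8 fr105 and 6 wild-type libraries, 1 of 579 genes was higher in fr105 (0.173%), the neutrophil granule gene *npsn* (3.46 ± 0.63 SE, limma-voom adjusted p 0.0124), and 0 were lower (0%), with 44 higher and 106 lower at an unadjusted p under 0.05. With 8 IT325 and 6 wild-type libraries, 10 of 519 were higher in IT325 (1.93%) and 1 was lower (0.193%). Of the 10, 4 were genes ranked high above. From members over other cells came *selenop* (5.40 ± 0.95) and *atp1b1* (1.82 ± 0.35). From the 87 tubule cells over the members that needed *atp1a1a.4* came *igfbp5* (4.02 ± 0.78) and *slc22a2* (4.09 ± 0.83). Those rankings used the same cells, so the overlap follows in part from them and is no added support. The others of the 10 were *hbe1*, *hbaa2*, *npsn*, mt-co1, si:ch211-114n24.6 and ENSDARG00000089441, and the lower gene was ENSDARG00000082634 (-1.43 ± 0.35). Tubule cells made up 35 of the 72 IT325 members and 1 of the 24 wild-type members.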

How the data were processed

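Single-cell RNA of WKM from 3-month-old fish was measured by mCEL-Seq2 in 24 libraries, 8 per genotype. According to the methods, the authors aligned reads with BWA 0.6.2-r126 (bcl2fastq 2.17.1.14 before it) to zebrafish Ensembl 74 gene models with extended 3′ ends, discarded reads of several loci, and counted 6-base molecular identifiers. Discarding such reads lowers near-identical genes, globins and the *atp1a1a* paralogs among them, whose levels are therefore uncertain. The deposited values are estimated transcript counts after the binomial correction for 4096 identifiers, which inverted to whole identifiers within 4.09e-12. Each deposited table has 192 barcode columns, of which the fuller 96 were used, and the other columns held 0.709% to 7.09% of transcripts. Of 23981 genes, 17966 had a symbol, and 17 spike-ins (0.00331% of transcripts) were left out. Doublets were not called, since cells had been sorted 1 to a well.

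A cell had at least 1500 transcripts and a member at least 3 of the 12 rule genes. Shares of cells per library were compared by two-sided exact permutation of libraries, adjusted by Benjamini-Hochberg over 9 tests (smallest possible p 0.000155). Transcripts were summed per library (at least 2 member cells, or 1 distal cell) and tested with limma 3.58.1 (voom, R 4.3.3) after a low-count filter and trimmed-mean scaling. The count models that had been planned were not run, although whole identifiers could be recovered, and limma-voom took their place. Tests were tested on simulated data, and other steps ran in Python 3.11.15 with scipy 1.17.1. Genes named were the 12 with the smallest adjusted p per direction, the listed genes, and those of highest ratio (15 for members, 10 per segment) among genes seen in at least 25% of cells, with 1 CPM added. The 87-cell group, the *slc12a3* and *slc12a10.3* cells and the genes named for them were chosen after their values were seen. Members, lists and tests were chosen with earlier results of these data known, so the genotype differences are no independent support for those results. Alternatives were other cell and marker minimums, thinning, other scalings, no filter, each set alone, a replicate block and leaving out each library.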

Additional observations from a re-analysis of the deposited data

Results flagged for a closer look

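Of 67 groups of libraries examined for a value far from the others, 16 had one, where chance gives about 1 in 20. Wild-type replicate 8 held the 1 wild-type cell that reached 3 transcripts without *atp1a1a.4*, 2.08% of its cells against 0 in the other 7, and 1 mixed cell, again 2.08%. IT325 replicate 10, with 4 members, stood high for si:ch211-229i14.2 (25.7 CPM, counts per 1000000 transcripts, next 11.7), CR388047.3 (77.0, next 31.2), *ZFP36* (411, next 168) and *grna.1* (22035, next 5955). In fr105 replicate 4, with 2 members, *atp1a1a.4* stood high (1777, next 857), as did *txnip* (1269, next 687), and *hspa8* low (254, next 1061). Single high values were also those of si:ch211-114n24.6 in fr105 replicate 8 (68.6, next 13.6), *dbi* in IT325 replicate 12 (1708, next 832), *anxa2* in IT325 replicate 1 (1349, next 642) and *tuba5* in IT325 replicate 4 (1196, next 622). The globin genes were high in IT325 replicate 3, with *hbe1* at 19517 (next 4109) and *hbaa2* at 23894 (next 2921), and *hbaa2* in fr105 replicate 1, at 4823 (next 1170).

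The difference between fr105 and IT325 in members was unlike that in the other cells of the same libraries for 5 genes (limma-voom interaction, 8 libraries each). Relative to other cells it was higher by 4.28 on the log2 scale for si:ch211-250g4.3 (adjusted p 0.0131), 4.95 for CR385063.1 (0.014), 5.86 for si:ch211-103n10.5 (0.0361) and 4.89 for *alas2* (0.0462), an enzyme of haem synthesis in red blood cells, and it was -2.35 for *p3h3* (0.0253). In the other cells the first 4 were lower in fr105, by log2 differences of -4.59, -4.59, -5.97 and -5.06, and *p3h3* was higher (1.34). Without fr105 replicate 1, 0 genes passed.

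Barcodes under 1500 transcripts were outside the main comparisons, and those with at least 1000 entered only the alternative with that minimum. Of all barcodes under 1500, 3 or more transcripts of the 11 genes other than *atp1a1a.4* were held by a mean of 1.52% per fr105 library (7 of 464 barcodes) and 1.05% per IT325 library (4 of 409), against 0.26% in wild-type (1 of 423).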

How the results depend on the processing

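The library, not the fish, was the sample, and wild-type held 0 distal members to describe. Leaving out 1 library at a time kept every share call against wild-type that passed, with ranges for all members of 25.2 to 32.2 points in fr105, 9.93 to 14.21 in IT325 and 13.1 to 20.1 between the mutants, for distal cells 6.03 to 8.30, 2.65 to 4.99 and 1.67 to 4.61, for proximal cells 5.21 to 7.14, 3.35 to 4.69 and 1.06 to 2.99, and for the distal share of segment cells 8.33 to 25.7. With cells of at least 3000 transcripts the distal fr105 difference from wild-type (6.78) and the proximal differences of fr105 (3.01) and IT325 (3.38) no longer passed, and the proximal difference between the mutants was -0.37. As shares of 96 barcodes the proximal differences were 2.21 and 1.95. Within P1, 5 differences from wild-type no longer passed, of all members (22.8, 7.34), distal fr105 cells (5.56) and proximal cells (4.44, 4.12), and within P2 likewise (34.0, 16.9, 8.97, 7.65, 4.19). Without *atp1a1a.4*, an alternative chosen after seeing the data, the differences of all members were 15.4, 9.06 and 6.39 points.

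The 93 genes between mutant members became 59 with library size scaling, 166 with no filter, 37 with members of at least 5 transcripts, 3 with 2 rule genes, 5 after thinning, 7 within P1, 22 within P2, and 41 (without fr105 replicate 7) to 166 (without fr105 replicate 1) with 1 library left out. The 5 genes of the interaction became 2 with median-of-ratios and 2 with library size scaling, 87 with no filter, 22 with at least 5 transcripts, 10 with 2 rule genes, 18 after thinning, 17 within P1, 0 within P2, 0 with at least 3 members a library, and 0 (without fr105 replicate 1) to 19 (without IT325 replicate 3) with 1 left out. The 1 distal gene became 6, 0, 2, 4, 0, 3 and 0 with median-of-ratios scaling, library size scaling, at least 5 transcripts, 2 rule genes, thinning, P1 and P2, and 1 to 19 (without IT325 replicate 4) with 1 left out. The causes were not tested. The 24 named genes, picked for the smallest adjusted p in these data, passed in all 384 fits with 1 library left out. In fits of the other alternatives their calls were kept 118 times and lost 74 times. Of the lost calls, 22 were with the replicate block, 16 within P1 and 12 within P2. A further 11 were with 2 rule genes and 11 with no filter. The planned edgeR and DESeq2 fits were not run, and both scalings were added after seeing the data.

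Replicate numbers did not pair the libraries: same-numbered libraries correlated at -0.134 to 0.114 (fr105 and wild-type, 8 pairs), -0.151 to 0.0294 (IT325 and wild-type, 4) and -0.0344 to 0.0699 (fr105 and IT325, 4). With the replicate block the differences from wild-type no longer passed for all members (28.4 in fr105, 17.6 in IT325). Nor did those of distal cells of fr105 (7.26) and of proximal cells (6.05, 5.29). Differences between the mutants were -2.60 for distal cells, -0.84 for proximal cells and -3.37 for the distal share, and 2 genes passed in place of 93. For IT325 at most 4 pairs were left, and an exact test of so few shares gives no p under 0.05, so none could pass. Replicates 1 to 4 were in set P2 for IT325 and in P1 for fr105 and wild-type. Set and genotype therefore cannot be told apart in these pairs. No paired analysis was possible for genes of distal cells because those libraries share 1 replicate number.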
